A study of Mus with 15 samples.

Results

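The genes described here are 45 type I interferon-stimulated genes, taken as a given list of mouse symbols and read in sorted thymic T cells of 5 gates. The list was chosen with earlier results of these data known. They are 45 of the 55573 genes in the deposited count table, and each was found by the position of its symbol in RefSeq on the same genome build, GRCm38. For 44 of the 45 the counts passed the filter on low counts. RNA was taken from thymocytes of 6-week-old female mice, C57Bl/6 x Foxp3-GFP, in which green fluorescent protein reports FOXP3, the master factor of regulatory T cells (Tregs). The thymus was dissociated mechanically, cells with CD8 were removed on magnets, and the rest were sorted by flow cytometry. Libraries came from a stranded kit for very small amounts of total RNA (SMARTer Stranded Total RNA-Seq, Pico v2). Each gate had 3 libraries, numbered 40, 42 and 43, which were biological replicates within 1 sorting experiment.

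All gates held live cells with the T cell receptor beta chain and CD4, and without CD8 or CD73, an enzyme on the surface of cells that have left and re-entered the thymus. Bst2+ cells carried BST2 together with CD25 (the alpha chain of the interleukin-2 receptor), FOXP3 or both. The other 4 gates excluded BST2. Among them, mature Tregs had CD25 and FOXP3, CD25+ progenitors had CD25 without FOXP3, FOXP3lo progenitors had low FOXP3 without CD25, and conventional cells, which are CD4 single-positive (CD4SP), lacked both. The labels do not say whether a replicate is 1 mouse or a pool, so p-values measure the spread between these libraries. The series tracks the development of Tregs in the thymus, where the CD25+ and FOXP3lo cells are its 2 progenitor populations.

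Type I interferons bind a receptor made of IFNAR1 and IFNAR2, and the kinases JAK1 and TYK2 then activate transcription factors, STAT2 among them. With IRF9 these switch on a broad set of genes whose products block viral replication, sense foreign nucleic acid or restrain the response itself. Many of the same genes also answer to interferon gamma or lambda. In the thymus, medullary cells make type I interferon without infection, and thymocytes gain interferon-stimulated transcripts as they mature. BST2, also called tetherin, holds budding virus on the cell surface and is itself induced by interferon, and here it was also the protein that set 1 gate apart.

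The libraries held 10816064 to 23758157 assigned counts. Foxp3 and Il2ra, which encodes CD25, followed the gates, with Foxp3 at 598 ± 59.7 CPM in mature Tregs, 3.202 ± 1.24 in CD25+ progenitors, 290.0 ± 15.9 in the FOXP3lo gate and 0.951 ± 0.545 in conventional cells (mean ± SD, n = 3 each). Il2ra was at 1152 ± 29.3 CPM in mature Tregs, 289 ± 6.84 in CD25+ progenitors, 107 ± 9.12 in the FOXP3lo gate and 9.07 ± 1.47 in conventional cells. CPM are counts relative to library size, after TMM scaling between libraries in edgeR. The Bst2+ libraries stood apart. Their biological coefficient of variation, the spread between replicates in edgeR's model, was 0.947, against 0.149 to 0.240 in the other gates. They also held RNA of cells that the gate should lack. The 12 markers of dendritic cells and macrophages summed to 596 to 975 CPM in Bst2+ libraries and to at most 8.38 CPM in any other library. For this reason the comparisons among the other 4 gates were fitted on their 12 libraries. Counts from a fit of all 15 are given beside them, except for mature Tregs over CD25+ progenitors.

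**Figure D1:**
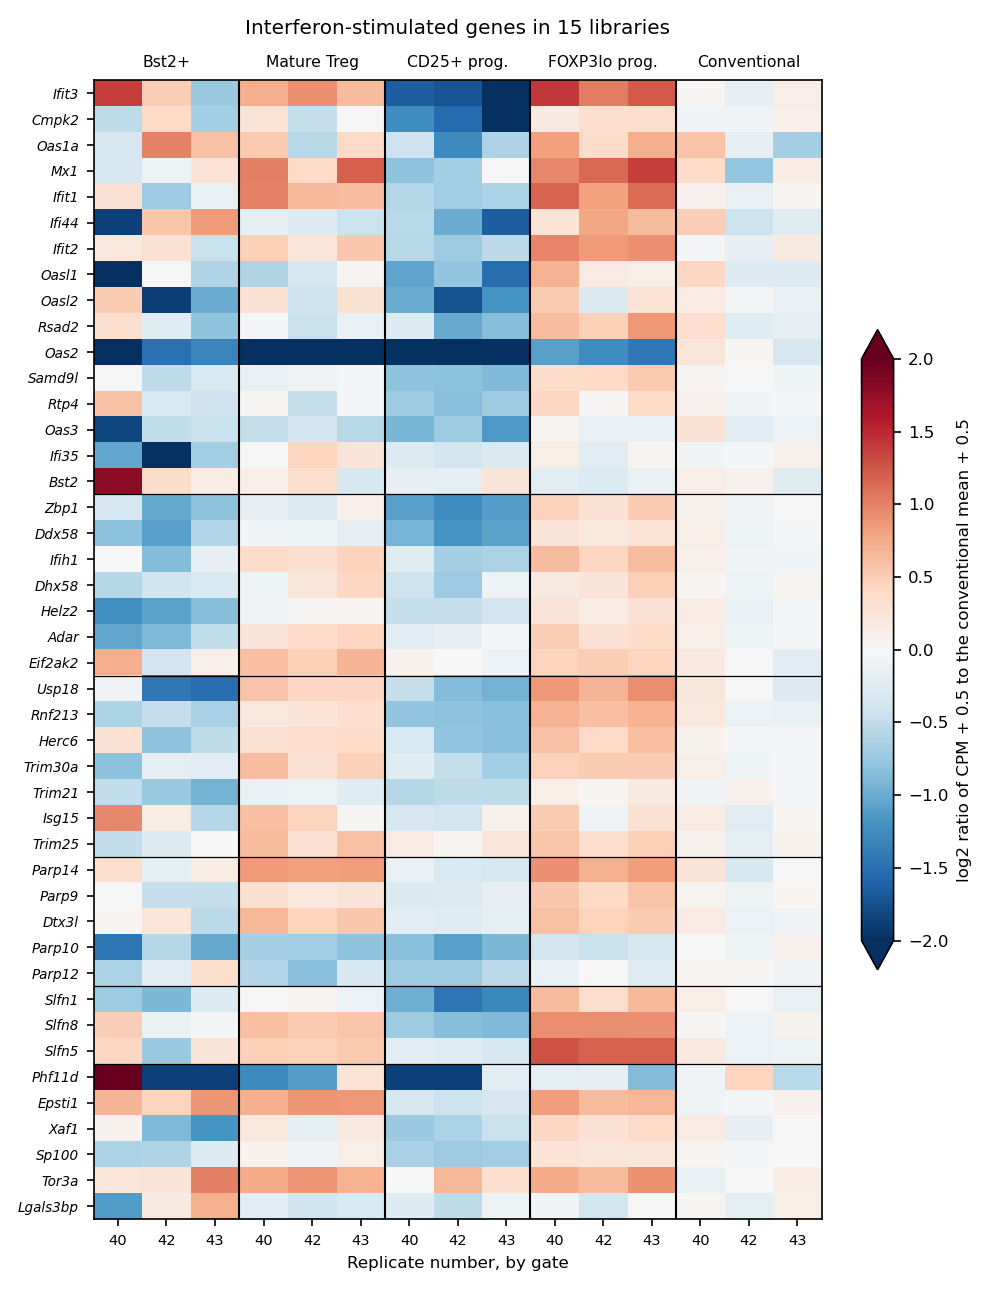
Levels of the 44 tested members in the 15 libraries, as the log2 ratio of CPM + 0.5 to the mean of the conventional libraries + 0.5. Rows are genes, grouped by role (from the top: effectors, sensors and editors, ISG15 system and ubiquitin ligases, PARP group, Schlafens, others), and columns are replicates 40, 42 and 43 of each gate. The CD25+ columns are mostly blue, with medians of −0.55, −0.71 and −0.63, and the FOXP3lo columns mostly red, with medians of 0.50, 0.35 and 0.49.

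CD25+ progenitors held less RNA of almost every member than FOXP3lo progenitors. Summed over the 45 members, the level was 3714, 3468 and 3589 CPM in CD25+ progenitors, against 7875, 7210.05 and 7769 CPM in FOXP3lo progenitors. As a share of all assigned counts, the members took 0.361% to 0.390% in CD25+ libraries and 0.698% to 0.760% in FOXP3lo libraries. Of the 44 tested members, 40 were lower in CD25+ progenitors and 0 were higher at an adjusted p under 0.05 (quasi-likelihood test of edgeR, with p-values adjusted after Benjamini and Hochberg over 15648 genes). Over all genes tested, 19.7% were called lower and 19.9% higher. Since the list was chosen with earlier results of these data known, the members' counts beside these shares are descriptive and no independent test. The members' median log2 fold change was −1.09, beside −0.02 for all genes. At an unadjusted p under 0.05 the counts were 41 lower and 0 higher, limma-voom called 41 lower and 0 higher, and DESeq2 40 and 0. Of 16 genes of late single-positive thymocytes 15 were lower in CD25+ progenitors too, and 6 of 6 markers of CD8 and double-positive thymocytes were higher, with sums of 155 to 202 CPM in CD25+ and 19.9 to 24.0 CPM in FOXP3lo progenitors. Their part in the members' difference was not tested. In bulk RNA, fewer cells that express a gene and less of its RNA per cell cannot be told apart.

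The 3 CD25+ libraries lay wholly below the 3 FOXP3lo libraries for 39 members. The exceptions were Isg15, which was called lower although its libraries overlapped, and the 4 members that were not called, Bst2, Lgals3bp, Phf11d and Tor3a. How many of all genes were separated in this way was not counted, while 39.5% of all genes were called in either direction. In reads, which also depend on transcript length, a few long or abundant transcripts made up much of the summed difference. Rnf213 alone gave 22.3% of it, the first 5 members (Rnf213, Sp100, Slfn5, Parp14 and Slfn1) gave 49.9%, and the first 10 gave 70.7%. In relative terms the shift was widest in the effectors and Schlafens, with median log2 fold changes of −1.51 over 16 effectors and −1.75 over 3 Schlafens. It was narrower in the sensors and editors at −0.71 over 7 and the PARP group at −0.74 over 5.

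**Figure D2:**
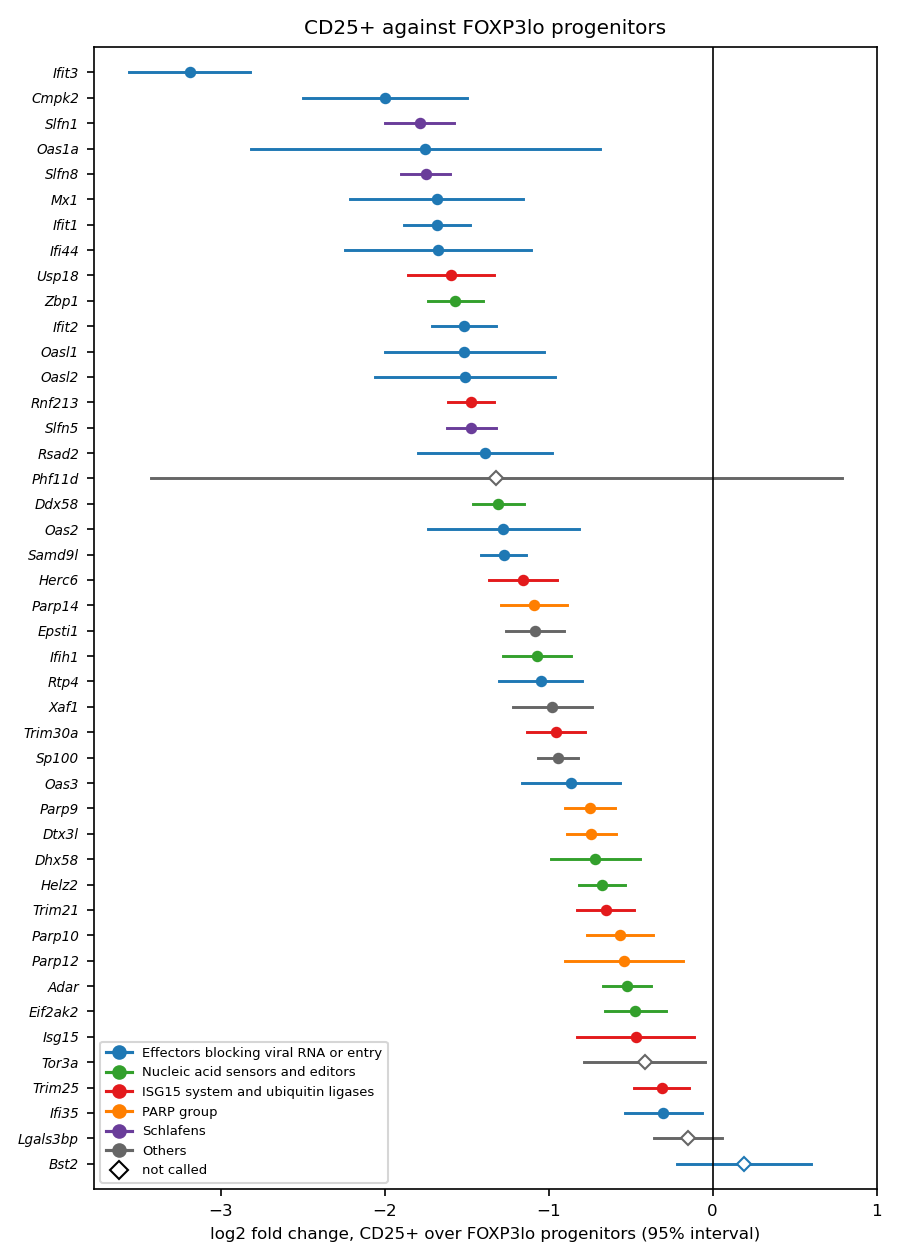
Log2 fold change of each tested member, CD25+ over FOXP3lo progenitors, with its 95% interval (n = 3 libraries each). Filled circles were called at an adjusted p under 0.05 and open diamonds were not, and colours give the role. All but Bst2 lie left of 0, from −3.19 for Ifit3 to −0.15 for Lgals3bp, and Bst2 lies at 0.19.

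The IFIT proteins bind foreign RNA and stop its translation, and Ifit3 (ENSMUSG00000074896, chromosome 19, 34583531 to 34588731) had the widest difference of all members. It had 4.74, 4.49 and 3.34 CPM in CD25+ progenitors, against 43.5, 32.97 and 38.1 CPM in FOXP3lo progenitors. No CD25+ library came near a FOXP3lo library, and the difference was 9.12-fold (log2 fold change −3.19 ± 0.18, adjusted p = 4.69e-18). Its neighbours on chromosome 19 followed at smaller size, Ifit1 by −1.68 and Ifit2 by −1.52 on the log2 scale, both called. Reads of Ifit3 and Ifit1 can be shared with near-identical copies (Ifit3b and Ifit1bl1), which the counting's limit on mapping quality would set aside.

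Rsad2 (viperin, which makes a chain-terminating nucleotide) and Cmpk2 (a nucleotide kinase that supplies it) lie side by side on chromosome 12. Cmpk2 (ENSMUSG00000020638, chromosome 12, 26469204 to 26479837) had 4.74, 3.79 and 2.54 CPM in CD25+ progenitors, against 13.7, 15.1 and 15.4 CPM in FOXP3lo progenitors. The groups did not overlap and differed by −1.999 ± 0.25 (adjusted p = 9.53e-09) on the log2 scale. Rsad2 differed by −1.39. Mx1, a dynamin-like GTPase that is defective in C57BL/6 mice and that RefSeq lists as a transcribed pseudogene, still gave a transcript, with 4.99, 5.502 and 9.16 CPM in CD25+ and 18.1, 20.8 and 24.4 CPM in FOXP3lo progenitors and a log2 fold change of −1.68.

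The OAS enzymes make oligoadenylates that switch on RNase L, and all 5 OAS and OAS-like members were called lower in CD25+ progenitors. Oas1a, Oas2 and Oas3 differed by −1.75, −1.27 and −0.86 on the log2 scale, and the OAS-like genes Oasl1 and Oasl2 both by −1.51. Oas1a was scarce, with 1.42, 0.555 and 1.16 CPM in CD25+ and 4.03, 2.79 and 3.73 CPM in FOXP3lo progenitors, and it belongs to a family of near-identical genes among which reads can be lost. Of the remaining effectors, Samd9l, which restrains translation in infected cells, was among the members with the smallest adjusted p. Samd9l (ENSMUSG00000047735, chromosome 6, 3372257 to 3399572) had 145, 143 and 137 CPM in CD25+ progenitors, against 327, 334 and 366 CPM in FOXP3lo progenitors, a log2 fold change of −1.27 ± 0.07 (adjusted p = 7.03e-19). The groups did not overlap. Ifi44 differed by −1.67, Rtp4 (a chaperone of surface receptors) by −1.05 and Ifi35 by −0.30.

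All 7 tested sensors and editors were lower in CD25+ progenitors. Zbp1 (ENSMUSG00000027514, chromosome 2, 173206612 to 173218923), which senses Z-form nucleic acid and can trigger cell death, had 90.5, 81.4 and 90.1 CPM in CD25+ progenitors, against 267, 236 and 275 CPM in FOXP3lo progenitors. No CD25+ library reached a FOXP3lo library, and the log2 fold change was −1.57 ± 0.08 (adjusted p = 4.09e-19). The RNA sensors Ddx58 (RIG-I), Ifih1 (MDA5) and Dhx58 (LGP2) differed by −1.31, −1.07 and −0.71. Helz2, a helicase and coactivator, differed by −0.68, Adar, which edits adenosine to inosine in double-stranded RNA, by −0.52, and Eif2ak2 (PKR, a kinase that stops translation on binding such RNA) by −0.47. Trex1, a DNA exonuclease, had 0 counts in all 15 libraries, which allows at most 0.277 CPM, before TMM scaling, in the shallowest library. Of its exonic bases 100% lie within exons of another gene on the same strand, and the header of the count table names no option to count a read for several genes, so this 0 may not reflect its RNA.

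ISG15 is a ubiquitin-like protein that is joined to other proteins, and the members around it were all 7 called lower. Rnf213 (ENSMUSG00000070327, chromosome 11, 119393100 to 119487418), a giant ubiquitin ligase, had 513, 508 and 497 CPM in CD25+ progenitors, against 1438, 1342 and 1431 CPM in FOXP3lo progenitors. The groups were far apart, with a log2 fold change of −1.47 ± 0.07 (adjusted p = 1.41e-20). Usp18, which removes ISG15 and shuts off the interferon receptor, differed by −1.59, the mouse ISG15 ligase Herc6 by −1.15, and the ubiquitin ligases Trim30a, Trim21 and Trim25 by −0.95, −0.65 and −0.31. Isg15 itself differed by only −0.47, with 15.2, 14.9 and 20.5 CPM in CD25+ progenitors and 27.8, 18.4 and 23.9 CPM in FOXP3lo progenitors. CD25+ replicate 43 lay above FOXP3lo replicate 42.

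The PARP group attaches ADP-ribose to proteins, and all 5 of its members were lower in CD25+ progenitors. Parp9 and its partner ligase Dtx3l are transcribed from opposite strands of chromosome 16 with ends that overlap, and they differed by −0.75 and −0.74 on the log2 scale. Parp14 differed by −1.09, Parp10 by −0.57 and Parp12 by −0.54. The Schlafens, named for their tie to T cell quiescence, gave the smallest adjusted p of all members. Slfn8 (ENSMUSG00000035208, chromosome 11, 83002158 to 83020810) had 78.8, 71.3 and 70.1 CPM in CD25+ progenitors, against 248, 248 and 245 CPM in FOXP3lo progenitors. The FOXP3lo libraries lay within 3 CPM of each other, and the log2 fold change was −1.75 ± 0.07 (adjusted p = 6.51e-22). Slfn5 had 167, 162 and 154 CPM in CD25+ and 465, 439 and 436 CPM in FOXP3lo progenitors, a log2 fold change of −1.47 ± 0.07 (adjusted p = 7.41e-20). For Slfn1 it was −1.79 ± 0.10 (adjusted p = 1.02e-13).

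Among the 6 remaining members 3 were lower in CD25+ progenitors. These were Epsti1 at −1.08, Xaf1, which opposes an inhibitor of apoptosis, at −0.98, and Sp100, a protein of nuclear bodies, at −0.94 on the log2 scale. Tor3a, a torsin-family ATPase, had 11.4, 18.4 and 14.5 CPM in CD25+ and 19.4, 17.99 and 21.8 CPM in FOXP3lo progenitors (log2 fold change −0.41 ± 0.18, adjusted p = 0.0678), and limma-voom called it at an adjusted p of 0.0461. Without CD25+ replicate 42 it was called, at −0.61. Lgals3bp, a secreted glycoprotein, lay at −0.15. Phf11d was near the floor of counting, with 0, 0 and 20 counts in CD25+ progenitors, against 19, 20 and 9 counts in FOXP3lo progenitors.

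Of the 40 calls, 37 were made in every fit that left out 1 library. Ifi35 was lost without any 1 of the CD25+ libraries or without FOXP3lo replicate 40 or 43, with log2 fold changes between −0.32 and −0.22. Isg15 was lost without CD25+ replicate 40 or 42 or FOXP3lo replicate 40 or 43, at −0.45 to −0.32, and Parp12 without FOXP3lo replicate 42, at −0.47. In the fit of all 15 libraries 33 members were called lower. Of all genes, 1474 of 16069 were lower in that fit, beside 3077 of 15648 on 12 libraries.

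Bst2 (ENSMUSG00000046718, chromosome 8, 71534255 to 71537456) was not among the members called. It had 12.6, 12.3 and 17.05 CPM in CD25+ progenitors, against 12.1, 11.7 and 12.9 CPM in FOXP3lo progenitors. The libraries of the 2 gates overlapped. The log2 fold change was 0.19 ± 0.20 (adjusted p = 0.495), with a 95% interval from −0.22 to 0.60, that is from 0.861-fold to 1.52-fold. Of the other 43 tested members, 42 had a fold change below this interval and 0 above it, and the 1 within it was Lgals3bp. This count takes the other members' fold changes without their own errors, and it includes Phf11d and Tor3a, which were not called. Plasmacytoid dendritic cells carry BST2 without added interferon. Their 8 markers summed to 52.1 to 69.0 CPM in CD25+ progenitors and to 33.5 to 35.3 CPM in FOXP3lo progenitors, the 4 tested (Bcl11a, Irf8, Pld4 and Tcf4) were higher in CD25+ progenitors, and of the defining markers Siglech and Klk1 were at 0 in all 3 CD25+ libraries and Cox6a2 was at 0.151 CPM in 1 of them and at 0 in the others. The part of such cells in the level of Bst2 was not tested.

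Bst2 lay between 11.3 and 18.3 CPM in all 12 libraries of the gates that excluded BST2. It was 15.7, 18.3 and 11.3 CPM in mature Tregs and 15.5, 15.1 and 11.9 CPM in conventional cells, and the order of the means was mature Tregs, conventional cells, CD25+ progenitors, FOXP3lo progenitors. Neighbours in this order did not differ beyond their spread. In none of the 6 pairs of these gates was Bst2 called. Its log2 fold change was −0.02 ± 0.20 (adjusted p = 0.964) for CD25+ progenitors over conventional cells, −0.21 ± 0.20 (adjusted p = 0.523) for FOXP3lo progenitors over conventional cells and 0.09 ± 0.20 (adjusted p = 0.809) for mature Tregs over conventional cells. It was 0.10 ± 0.20 (adjusted p = 0.753) for mature Tregs over CD25+ progenitors and 0.30 ± 0.20 (adjusted p = 0.367) for mature Tregs over FOXP3lo progenitors. The widest of these intervals ran from −0.11 to 0.71, so a difference of up to 1.64-fold is within the error. The gates were sorted on the absence of BST2 protein, and RNA within that limit was all that could be compared among them.

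**Figure D3:**
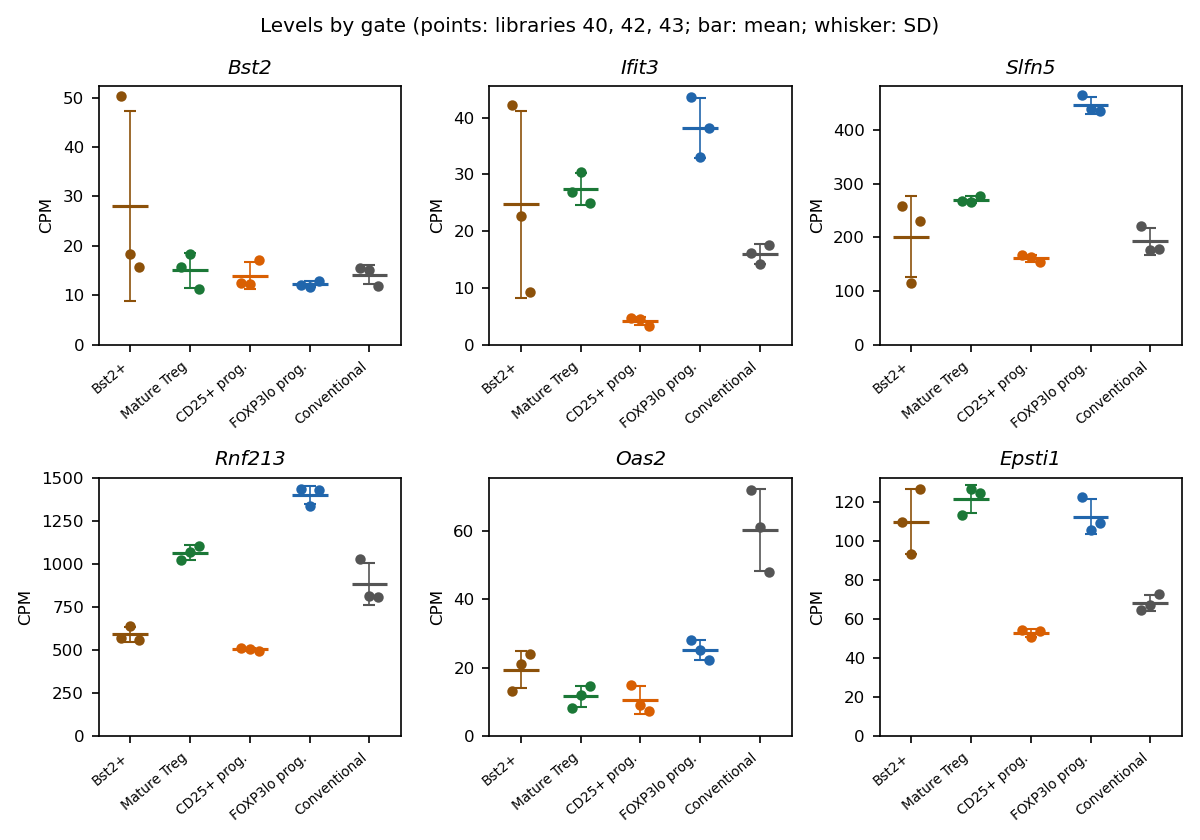
Levels of 6 members in CPM by gate. Points are replicates 40, 42 and 43, the bar is their mean and the whiskers are the SD. Bst2 stays between 11.3 and 18.3 CPM in the 12 libraries of the gates without BST2, Ifit3, Slfn5 and Rnf213 are lowest in CD25+ and highest in FOXP3lo progenitors among these 4 gates, Oas2 is highest in conventional cells, and Epsti1 is about as high in mature Tregs as in FOXP3lo progenitors.

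Conventional cells give the level of T cells at the same surface stage without CD25 or FOXP3. Summed over the members, they had 5856, 5003 and 5201 CPM, between the 2 progenitor gates. Of 44 tested members, 35 were lower in CD25+ progenitors than in conventional cells and 0 higher, where 14.3% and 14.7% of all genes were called lower and higher. At an unadjusted p under 0.05 there were 35 lower and 1 higher (Tor3a), and limma-voom and DESeq2 called 36 and 33 lower and 0 higher each. The members' median was −0.63, beside −0.01 for all genes. FOXP3lo progenitors went the other way, with 27 members higher than in conventional cells and 2 lower, where 12.8% and 12.3% of all genes, 25.1% together, were called. Their median was 0.44, beside −0.01. Both comparisons use the same conventional libraries. In the fit of all 15 libraries the counts were 17 lower in CD25+ progenitors, and 15 higher and 1 lower in FOXP3lo progenitors. Calls over all genes fell there too. For CD25+ progenitors 910 of 16069 genes were lower, beside 2232 of 15648 on 12 libraries. For FOXP3lo progenitors 784 of 16069 were higher and 616 lower, beside 2003 and 1922 of 15648. Of the 35 calls in CD25+ progenitors, 26 were made in every fit that left out 1 library. The others, Dhx58, Dtx3l, Ifi35, Ifi44, Lgals3bp, Parp14, Parp9, Rsad2 and Slfn5, were all lost without conventional replicate 40, and all but Ifi44 and Slfn5 also without at least 1 other library. Of the 27 higher in FOXP3lo progenitors 23 were made in every such fit, all but those of Ddx58, Helz2, Rsad2 and Xaf1. Of the 16 late single-positive genes, 15 were lower and 0 higher in CD25+ progenitors, and 13 were higher and 1 lower in FOXP3lo progenitors.

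The Schlafens and IFIT genes differed from conventional cells in both progenitor gates, by unequal amounts. Slfn5 had 222, 177 and 179 CPM in conventional cells. Against these it was lower in CD25+ progenitors, at −0.26 (adjusted p = 0.00493), and higher in FOXP3lo progenitors by 1.21 ± 0.07 (adjusted p = 5.58e-17) on the log2 scale, so most of its difference between the progenitors lay on the FOXP3lo side. Slfn1 was the reverse, at −1.23 in CD25+ and 0.55 in FOXP3lo progenitors. Slfn8 had 132, 119.5 and 136 CPM in conventional cells and differed by −0.82 ± 0.07 (adjusted p = 6.07e-12) in CD25+ and 0.93 ± 0.07 (adjusted p = 1.11e-13) in FOXP3lo progenitors. Ifit3 had 16.2, 14.2 and 17.5 CPM in conventional cells and differed by −1.93 ± 0.18 (adjusted p = 1.84e-11) in CD25+ and 1.26 ± 0.16 (adjusted p = 5.49e-08) in FOXP3lo progenitors. Ifit1 and Ifit2 differed in FOXP3lo progenitors by 1.04 ± 0.10 (adjusted p = 1.67e-11) and 0.92 ± 0.09 (adjusted p = 2.54e-10). Without conventional replicate 40, the call of Slfn5 in CD25+ progenitors was lost, at −0.15.

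The sensors Ddx58 and Zbp1, by contrast, lay mostly on the CD25+ side. Ddx58 had 88.6, 74.5 and 80.7 CPM in CD25+ progenitors and 202, 196 and 205 CPM in FOXP3lo progenitors, against 183, 158 and 168 CPM in conventional cells. Its log2 fold change from conventional cells was −1.06 ± 0.08 (adjusted p = 1.1e-14) in CD25+ and 0.25 (adjusted p = 0.0118) in FOXP3lo progenitors, and the second call was lost without FOXP3lo replicate 43, at 0.23, or conventional replicate 42, at 0.20. Zbp1 had 204, 184 and 193 CPM in conventional cells, and differed by −1.15 ± 0.08 (adjusted p = 8.69e-15) in CD25+ and 0.42 in FOXP3lo progenitors. Samd9l, Sp100 and Cmpk2 were also lower in CD25+ progenitors by more than they were higher in FOXP3lo progenitors, at −0.84, −0.69 and −1.701 on the log2 scale in CD25+ and 0.43, 0.25 and 0.30 in FOXP3lo progenitors, where Cmpk2 was not called. Rnf213 had 1028, 815 and 811 CPM in conventional cells, and its differences were near in size, −0.81 in CD25+ and 0.67 in FOXP3lo progenitors.

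Some members differed from conventional cells in 1 progenitor gate at most. Adar, Eif2ak2, Trim25 and Tor3a were called higher in FOXP3lo progenitors, at 0.38, 0.45, 0.46 and 0.79. In CD25+ progenitors their values were −0.14, −0.02, 0.15 and 0.38, and none was called. Mx1 was 1.19 in FOXP3lo progenitors and −0.49 in CD25+ progenitors, where it was called only without CD25+ replicate 43 (−0.81) or conventional replicate 42 (−0.76). Cmpk2, Rtp4, Dhx58, Trim21, Oas3, Oasl1, Oasl2, Ifi44, Ifi35, Parp12 and Lgals3bp were called lower in CD25+ progenitors, and in FOXP3lo progenitors they were not called, with values between −0.13 and 0.58.

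Oas2 and Parp10 were lower than in conventional cells in both progenitor gates. Oas2 (ENSMUSG00000032690, chromosome 5, 120730333 to 120749853) had 15.03, 9.04 and 7.25 CPM in CD25+ progenitors and 28.1, 25.2 and 22.1 CPM in FOXP3lo progenitors, against 71.8, 61.2 and 47.9 CPM in conventional cells. No progenitor library reached a conventional one, and the log2 fold changes were −2.54 ± 0.22 (adjusted p = 2.72e-09) and −1.26 ± 0.21 (adjusted p = 5.38e-05). Its neighbour Oas3, 3244 bases away, was at −0.94 and −0.08. Parp10 had 44.8, 37.7 and 43.2 CPM in CD25+ progenitors and 62.3, 59.2 and 64.6 CPM in FOXP3lo progenitors, against 81.1, 75.4 and 85.3 CPM in conventional cells. Its log2 fold changes were −0.94 (adjusted p = 2.89e-10) and −0.38 ± 0.10 (adjusted p = 0.00268), and in the fit of all 15 libraries the second was not called (adjusted p = 0.222).

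By the order of gate means, FOXP3lo progenitors had the highest level of the 4 gates for 29 of 44 members, mature Tregs for 9, conventional cells for 6 and CD25+ progenitors for 0. CD25+ progenitors had the lowest level for 40 members. The other 4 were Trim25 and Tor3a, lowest in conventional cells, Bst2, lowest in FOXP3lo progenitors, and Lgals3bp, lowest in mature Tregs. How all genes ordered the gates was not counted. The order also takes means alone, whatever their spread. Oas3, for example, was highest in conventional cells at 36.4 ± 7.36 CPM, against 34.6 ± 2.62 CPM in FOXP3lo progenitors. Per kilobase of exon, which allows genes to be set beside each other, the most abundant members in FOXP3lo progenitors were Slfn1 at 176 CPM per kilobase, Sp100 at 91.2, Rnf213 at 83.1, Zbp1 at 73.5 and Slfn5 at 70.6. In CD25+ progenitors Slfn1 was at 51.0, Sp100 at 47.4, Rnf213 at 29.9, Zbp1 at 24.7 and Slfn5 at 25.4. Bst2 was at 15.5 in CD25+ and 13.6 in FOXP3lo progenitors.

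Mature Tregs, which have both CD25 and FOXP3, lay nearer to FOXP3lo than to CD25+ progenitors by summed level. Their summed level was 6365, 6152 and 6493 CPM. Against CD25+ progenitors, 35 of 44 members were higher and 0 lower, where 15.9% and 16.8% of all genes were called higher and lower. The median was 0.77, beside −0.01 for all genes. At an unadjusted p under 0.05 there were 39 higher and 0 lower, and limma-voom and DESeq2 each called 35 higher and 0 lower. Against FOXP3lo progenitors, 21 were lower and 0 higher, where 9.29% and 9.37% of all genes were called, with a median of −0.28, beside 0.00 for all genes. At an unadjusted p under 0.05 these were 24 lower and 1 higher (Ifi35), and limma-voom and DESeq2 called 20 and 18 lower and 0 higher each. Both comparisons use the same mature Treg libraries. Without FOXP3lo replicate 43 the 21 became 12, and in the fit of all 15 libraries 6. Of all genes, 1138 of 16364 and 355 of 16069 were lower in those fits, beside 1453 of 15648 on 12 libraries. Of the 16 late single-positive genes, 15 were higher and 0 lower in mature Tregs than in CD25+ progenitors, and 4 were higher and 7 lower than in FOXP3lo progenitors.

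From CD25+ progenitors, Ifit3 was higher in mature Tregs by 2.71 ± 0.18 (adjusted p = 1.23e-15) on the log2 scale, with 26.8, 30.4 and 24.9 CPM in mature Tregs. Slfn8 had 197, 187 and 189 CPM in mature Tregs and was higher by 1.38 ± 0.07 (adjusted p = 1.22e-18). Rnf213 had 1022, 1074 and 1109 CPM in mature Tregs and was higher by 1.08 ± 0.07 (adjusted p = 2.63e-16). For these 3 genes the mature Treg libraries lay between those of the progenitor gates. Ifit1, Epsti1, Zbp1 and Cmpk2 were higher by 1.404, 1.198, 1.04 and 1.66 on the log2 scale, with adjusted p-values of 4.93e-15, 1.14e-14, 1.44e-13 and 8.15e-07. The 9 members not called were Bst2, Rsad2, Oas1a, Oas2, Parp10, Parp12, Lgals3bp, Phf11d and Tor3a. Of the 35 calls 31 were made in every fit that left out 1 library, all but those of Ifi44, Isg15, Oas3 and Oasl1.

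From FOXP3lo progenitors, mature Tregs were lower in all 3 Schlafens. Slfn5 had 267, 266 and 278 CPM in mature Tregs, below every FOXP3lo library, and differed by −0.72 ± 0.07 (adjusted p = 2.54e-10). Slfn1 differed by −0.57 ± 0.10 (adjusted p = 0.000102) and Slfn8 by −0.37. Samd9l was lower, at −0.51 ± 0.07 (adjusted p = 1.63e-07), Zbp1 at −0.53 ± 0.08 (adjusted p = 3.02e-06) and Rnf213 at −0.39 ± 0.07 (adjusted p = 2.44e-05). Oas2 had 8.33, 11.97 and 14.5 CPM in mature Tregs and differed by −1.104 ± 0.22 (adjusted p = 0.000779).

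Ifit2, Rsad2 and Ifi44 were lower, at −0.49, −0.89 and −0.90, with adjusted p-values of 0.000114, 0.00102 and 0.0157, and none of the 3 was called in the fit of all 15 libraries. Ifi44 was also lost without FOXP3lo replicate 42 or 43 (−0.79 and −0.87) or mature Treg replicate 43 (−0.84). Of the 21 calls, 10 were made in every fit that left out 1 library. Trim25, Trim30a, Dtx3l, Parp14, Adar and Tor3a had differences between −0.03 and 0.05 here and were not called.

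Against conventional cells, mature Tregs had 19 members higher and 5 lower, where 15.1% and 15.3% of all genes were called. The median was 0.21, beside −0.01 for all genes. In the fit of all 15 libraries 7 were higher and 2 lower. Of all genes, 1037 of 16069 were higher and 920 lower in that fit, beside 2369 and 2387 of 15648 on 12 libraries. Of the 19 higher calls 16 were made in every fit that left out 1 library, all but those of Mx1, Parp9 and Usp18. Epsti1 had 113, 126 and 124 CPM in mature Tregs, against 64.7, 67.03 and 72.7 CPM in conventional cells. It differed by 0.83 ± 0.09 (adjusted p = 1.76e-10), and its groups did not overlap. Parp14 had 510.4, 501 and 505 CPM in mature Tregs, against 337, 227 and 283 CPM in conventional cells, and differed by 0.84 ± 0.10 (adjusted p = 2.68e-07). Ifit1, Slfn8 and Dtx3l were higher by 0.77, 0.56 and 0.55, with adjusted p-values of 2.31e-08, 3.6e-08 and 7.53e-08. Mx1 was higher by 0.91 ± 0.26 (adjusted p = 0.00551), with 18.7, 11.97 and 21.4 CPM in mature Tregs, against 12.01, 5.14 and 10.1 CPM in conventional cells. These groups overlapped, and the call was lost without conventional replicate 42 (0.64) or mature Treg replicate 43 (0.73) and in the fit of all 15 libraries.

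The 5 members lower in mature Tregs than in conventional cells were Oas2, Parp10, Oas3, Parp12 and Lgals3bp. Oas2 differed by −2.37 ± 0.22 (adjusted p = 8.92e-09) and Parp10, with 50.9, 50.3 and 45.96 CPM in mature Tregs, by −0.72 ± 0.10 (adjusted p = 1.63e-07). The other 3 rested on single libraries. Oas3 (−0.48 ± 0.15, adjusted p = 0.00943) was lost without conventional replicate 40, at −0.30. Parp12 (−0.58 ± 0.18, adjusted p = 0.0111) was lost without mature Treg replicate 42, at −0.46. Lgals3bp (−0.31 ± 0.10, adjusted p = 0.0188) was lost without conventional replicate 40 or 43 (−0.28 and −0.26) or mature Treg replicate 42 (−0.27). Without conventional replicate 40 or mature Treg replicate 42, 3 members were called lower, and in the fit of all 15 libraries Oas3, Parp12 and Lgals3bp were not called.

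The difference that goes with CD25 was set against itself with and without FOXP3, as the fold change of mature Tregs over FOXP3lo progenitors minus that of CD25+ progenitors over conventional cells. These share no library. The gates compared did not differ by CD25 alone, since Foxp3 was at 598 CPM in mature Tregs and 290 CPM in FOXP3lo progenitors. The steps in Il2ra were also unequal, from 107 to 1152 CPM with FOXP3 and from 9.07 to 289 CPM without it. The term therefore does not isolate CD25. For 16 of 44 members the term was positive and for 1 negative, where 5.46% and 5.39% of all genes were called, and the median was 0.34, beside 0.01 for all genes. Of the 16 late single-positive genes the term was positive for 14 and negative for 0, with a median of 1.03, and their part in the members' terms was not tested. For Ifit3 the log2 fold change was −0.48 with FOXP3 and −1.93 without it, a difference of 1.45 ± 0.24 (adjusted p = 2.12e-05). For Ddx58 it was −0.35 with FOXP3 and −1.06 without it, a difference of 0.71 ± 0.11 (adjusted p = 4.28e-06). Sp100 differed by 0.49 ± 0.09 (adjusted p = 5.17e-05), Zbp1 by 0.62 ± 0.11 (adjusted p = 0.000112) and Slfn1 by 0.66 ± 0.14 (adjusted p = 0.00181). Oas2 (1.44 ± 0.31, adjusted p = 0.00258) and Cmpk2 (1.36 ± 0.34, adjusted p = 0.00418) had wide differences too.

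Slfn5 was the 1 member with a negative term. Its fold change was −0.72 with FOXP3 and −0.26 without it, a difference of −0.46 ± 0.10 (adjusted p = 0.0012). For Bst2 the term was 0.32 ± 0.29 (adjusted p = 0.601). In the fit of all 15 libraries 2 members kept a positive call, Ddx58 and Sp100, and 0 a negative one. Of all genes, 192 of 16069 were positive and 186 negative in that fit, beside 855 and 843 of 15648 on 12 libraries. DESeq2 called 15 positive and 1 negative. Of the 16 positive calls 11 were made in every fit that left out 1 library, and those of Herc6, Ifi35, Oasl2, Samd9l and Trim30a were each lost without any 1 of 3 or more of the libraries.

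Bst2+ cells were compared with the mean of the 3 other gates that hold CD25 or FOXP3, in a fit of all 15 libraries and 16069 genes. Bst2 was higher, and most members that passed the test were lower. Bst2 had 50.3, 18.4 and 15.7 CPM in Bst2+ cells. The first of these libraries lay far above all others, replicates 42 and 43 had 18.4 and 15.7 CPM, and the highest of the 9 libraries of the other gates was 18.3 CPM. The log2 fold change was 1.03 ± 0.27 (adjusted p = 0.00697), and without Bst2+ replicate 40 it was 0.31 (adjusted p = 0.251). With a variance per gate in limma-voom it was 0.74 and was not called. Of the other members, Epsti1 was higher and 19 were lower, where 19.3% and 19.8% of all genes were called higher and lower. The median over the 44 was −0.33, beside −0.03 for all genes. With a variance per gate 0 members were higher and 7 lower. Of all 16069 genes, 1423 were then higher and 742 lower, beside 3099 and 3187 in the edgeR fit. Of the 16 late single-positive genes 1 was higher and 10 were lower in Bst2+ cells.

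Helz2 had 161, 178 and 206 CPM in Bst2+ cells, against 354, 378 and 387 CPM in mature Tregs, 268, 267 and 286 CPM in CD25+ progenitors and 447, 412 and 454 CPM in FOXP3lo progenitors. Every Bst2+ library lay below all 9, and the log2 fold change was −0.96 ± 0.08 (adjusted p = 1.6e-07). Adar had 122, 136 and 178 CPM in Bst2+ cells, while its lowest level in the 9 other libraries was 217 CPM, and it differed by −0.99 ± 0.10 (adjusted p = 1.34e-06). Ifi35 had 21.3, 10.6 and 27.2 CPM in Bst2+ cells and differed by −1.14 ± 0.21 (adjusted p = 0.000373). Trim25 differed by −0.62 ± 0.11 (adjusted p = 0.000245), and by −0.24 (adjusted p = 0.166) when Bst2+ cells were set against conventional cells alone. These 4 were the members whose Bst2+ libraries did not overlap the 9 libraries of mature Tregs and both progenitor gates. How many of all genes were separated in this way was not counted.

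Rnf213 was lower in Bst2+ cells, at −0.62 ± 0.07 (adjusted p = 5.96e-06), with 571, 642 and 562 CPM, above the CD25+ progenitors and below the other gates. Usp18 differed by −1.06 ± 0.26 (adjusted p = 0.00359), with 34.5, 13.2 and 12.2 CPM in Bst2+ cells, and by −1.71 without Bst2+ replicate 40. Ddx58 differed by −0.51 ± 0.09 (adjusted p = 0.000447) and was not called with a variance per gate (adjusted p = 0.0628). Epsti1 had 109.6, 92.99 and 126 CPM in Bst2+ cells and differed by 0.29 ± 0.09 (adjusted p = 0.0199). This call was lost without Bst2+ replicate 43 (0.17), with a variance per gate (adjusted p = 0.347) and with no filter on low counts (0.25). Without Bst2+ replicate 40, 5 members were called higher, and of the 19 called lower 11 were called in every fit that left out 1 library.

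**Figure D4:**
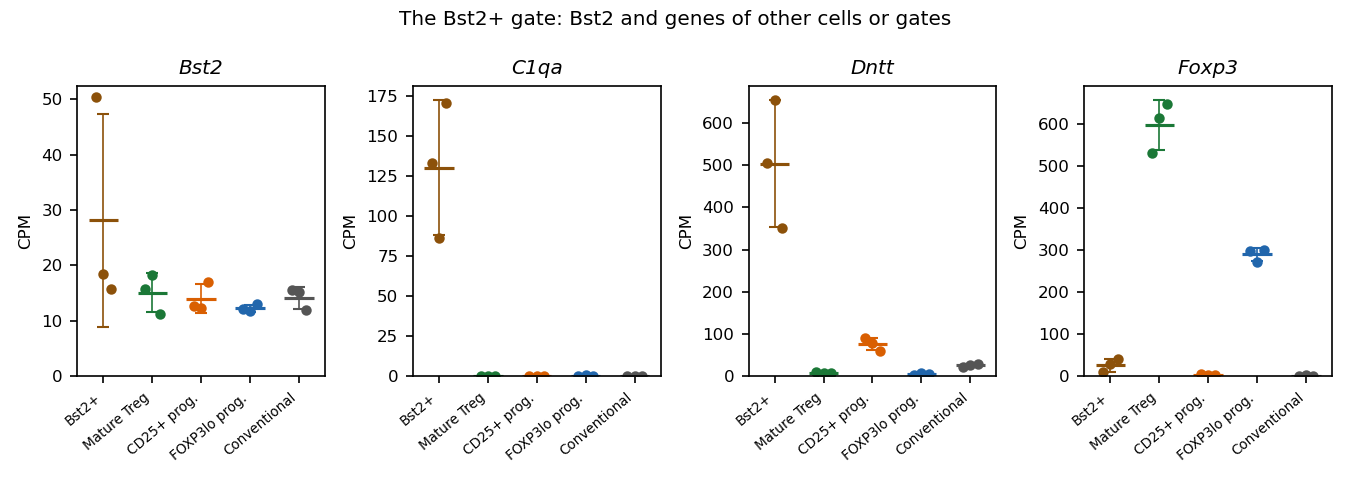
Bst2 and 3 genes that bear on what the Bst2+ gate holds, in CPM by gate: C1qa (a complement gene of macrophages), Dntt (an enzyme of immature thymocytes) and Foxp3. Points are replicates 40, 42 and 43, the bar is their mean and the whiskers are the SD. Bst2 is high in 1 of the 3 Bst2+ libraries, while C1qa and Dntt are high in all 3 and Foxp3 is low in all 3 beside mature Tregs.

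By its markers, the Bst2+ gate held RNA of several cell types. The 8 T cell markers summed to 3197 to 3474 CPM in Bst2+ cells, 2544 to 2625 in mature Tregs and 2825 to 2970 in CD25+ progenitors. They summed to 3418 to 3484 in the FOXP3lo gate and 3628 to 4077 CPM in conventional cells. C1qa had 133, 86.4 and 171 CPM in the 3 Bst2+ libraries. Of the 12 dendritic cell and macrophage markers none was at 0 in all 3 Bst2+ libraries, and 8 of the 9 tested were higher than in the other gates. The 6 markers of CD8 and double-positive thymocytes summed to 758 to 1293 CPM in Bst2+ cells, 35.8 to 42.1 in mature Tregs, 155 to 202 in CD25+ progenitors, 19.9 to 24.0 in the FOXP3lo gate and 52.4 to 89.4 CPM in conventional cells, and 5 of the 6 were called higher in Bst2+ cells. Dntt and Rag1 made up most of this sum, with means of 504 and 397 CPM in Bst2+ cells. Rag2 and Ptcra averaged 18.1 and 19.8 CPM there, against at most 4.52 and 4.21 CPM in the other gates. The CD8 genes were near other gates. Cd8a and Cd8b1 averaged 21.5 and 26.1 CPM in Bst2+ cells, against 16.8 and 27.8 CPM in conventional cells. Foxp3 had 9.104, 28.1 and 40.2 CPM in Bst2+ cells. The plasmacytoid markers summed to 112 to 151 CPM in Bst2+ cells, against 16.1 to 72.0 CPM in the other gates. Among them, Pld4, Tcf4 and Bcl11a averaged 21.1, 66.0 and 11.4 CPM in Bst2+ cells, against at most 4.61, 31.1 and 2.28 CPM in the other gates. Irf8 averaged 33.7 CPM, below its 35.4 CPM in mature Tregs, and Spib 0.138 CPM, below its 0.565 CPM in CD25+ progenitors. Klk1 and Cox6a2 were at 0 in all 3 Bst2+ libraries, and Siglech was at 0, 0 and 1.45 CPM. Jchain, made by plasma cells, which also carry BST2, had 0, 73.2 and 231 CPM. Markers of epithelium and stroma summed to 8.51 to 40.7 CPM, and 4 of 8 were at 0. Most of this sum was Epcam, with 40.7, 21.2 and 5.36 CPM in Bst2+ cells, and Epcam also averaged 10.9 CPM in CD25+ progenitors. Krt8, Aire and Col1a1 averaged 0.887, 1.34 and 0.468 CPM in Bst2+ cells. Which cells held the marker RNA, and which held the Bst2 RNA, was not tested.

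Genes of the interferon pathway that are not members moved in part with them. Of 15 such genes 10 were lower and 1 higher in CD25+ than in FOXP3lo progenitors. Among the factors that bind interferon-stimulated promoters, Stat2 was lower, at −1.11, Irf9 at −0.86, Irf7 at −1.38 and Irf1 at −1.22 on the log2 scale. Stat2 had 62.6, 61.4 and 65.9 CPM in CD25+ progenitors, against 144, 126 and 141 CPM in FOXP3lo progenitors, and the groups did not overlap. Of the receptor chains, Ifnar1 differed by −0.31 and was called, and Ifnar2 by −0.24 (adjusted p = 0.0603) was not. The kinase Jak1 differed by −1.01, Jak2 by −0.20, and Tyk2 by −0.08 was not called. Ptpn6, a phosphatase that dampens receptor signals, was the 1 gene that was higher, by 0.26. Ifngr1, a chain of the receptor for interferon gamma, differed by −1.23.

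Against conventional cells, 8 of the 15 pathway genes were lower and 3 higher in CD25+ progenitors, and 10 were higher and 1 lower in FOXP3lo progenitors. In mature Tregs 9 were higher and 2 lower. Relative to conventional cells, CD25+ progenitors had more RNA of both type I receptor chains, Ifnar1 by 0.18 and Ifnar2 by 0.47. Stat2 and Irf9 were lower in the same comparison, at −0.41 and −0.36. Socs1, an inhibitor of the JAK kinases, was higher in mature Tregs than in conventional cells by 1.03 and was not called in either progenitor gate.

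The 15 late single-positive genes that were lower in CD25+ than in FOXP3lo progenitors included S1pr1, the receptor used to leave the thymus, at −3.02 and Klf2, a factor that drives its transcription, at −1.02. The 16 genes of that list summed to 2954 to 3110 CPM in CD25+ progenitors and 8205 to 8536 CPM in FOXP3lo progenitors, with 7973 to 8154 CPM in mature Tregs and 5253 to 5499 CPM in conventional cells. The gates stood in the same order as by the members' sums. The list includes B2m, H2-D1 and H2-K1, which themselves answer to interferon. Of the CD8 and double-positive markers, Rag1 was at 57.9 ± 15.95 CPM in CD25+ and 2.24 ± 0.425 CPM in FOXP3lo progenitors. T cell markers summed to 2825 to 2970.1 CPM in CD25+ and 3418 to 3484 CPM in FOXP3lo progenitors, with 6 of 8 lower in CD25+ progenitors. Eomes and Tbx21, of the 4 innate-like markers, and Epcam, of the 8 epithelial and stromal ones, were higher in CD25+ progenitors, and none of the B and plasma cell markers was called. Dendritic cell and macrophage markers summed to at most 8.38 CPM in every library of both progenitor gates.

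Some members that lie next to each other in the genome differed by similar amounts, and others did not. Oasl2 and Oasl1, 11005 bases apart on chromosome 5, differed by −1.51 and −1.51 between CD25+ and FOXP3lo progenitors. Parp9 and Dtx3l overlap by 682 bases on chromosome 16, and the counts are by strand, so that reads of one are not counted for the other. On chromosome 19, Ifit2 and Ifit3 lie 7111 bases apart and differed by −1.52 and −3.19. Oas2 and Oas3 differed from conventional cells by −1.26 and −0.08 in FOXP3lo progenitors.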

How the data were processed

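RNA of 15 libraries, 3 from each of 5 sorted gates, was analysed from 1 table of counts per gene that the authors deposited. Per the file header the authors made the counts with featureCounts 1.6.2 on Ensembl 97 genes, for pairs mapped at both ends, with mapping quality 10 as the minimum and strand setting 2. Per the submitters' processing notes, Trimmomatic 0.33, HISAT2 2.1.0, Subread and featureCounts 1.4.6 were used with GRCm38, and the versions of featureCounts in these sources differ. Such a quality limit sets aside reads shared by near-identical genes, which can lower Ifit3, Ifit1, Oas1a, Trim30a, Phf11d and Slfn8.

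Genes were named by position against RefSeq on GRCm38.p6 (a Jaccard overlap of at least 0.5 with a margin of 0.2, a shared end or a sole partner), and 37345 of 55573 were named, among them all 45 members. The members, their roles and the other lists were chosen with earlier results of these data known. Bst2 and the called members with the smallest adjusted p, the widest fold change or a direction against the majority are given with full statistics, and other members by values and counts.

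Counts were tested in R 4.3.3 with edgeR 4.0.16 (filterByExpr, TMM factors, glmQLFit with robust = TRUE, glmQLFTest), and p-values were adjusted by Benjamini-Hochberg over all genes tested, two-sided, and called under 0.05. The 4 gates without BST2 were fitted together on 12 libraries, and Bst2+ cells against the mean of 3 gates on all 15. Errors on log2 fold changes are standard errors. Each of 8 comparisons was repeated with other scaling factors, filters, libraries, limma 3.58.1, DESeq2 1.42.0, a replicate block and without each library. The code was tested on simulated data. The libraries held 10816064 to 23758157 counts, and a count of 0 allows at most 3 counts, 0.126 to 0.277 CPM before TMM scaling. This floor covers counting error only. No 2 libraries of the same gate agreed within sampling noise. Promoter and protein sequences were not analysed here.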

Additional observations from a re-analysis of the deposited data

Results flagged for a closer look

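The difference that goes with CD25 was larger or smaller with FOXP3 (mature Tregs over FOXP3lo progenitors) than without it (CD25+ progenitors over conventional cells) for 17 members, by edgeR's interaction term at an adjusted p under 0.05. Among the effectors the term was 1.45 for Ifit3, 1.36 for Cmpk2, 1.44 for Oas2, 1.20 for Oasl2, 0.57 for Ifi35 and 0.33 for Samd9l on the log2 scale. Among the sensors it was 0.71 for Ddx58 and 0.62 for Zbp1. In the ISG15 and ubiquitin group it was 0.45 for Herc6, 0.43 for Trim30a and 0.41 for Rnf213, and for Parp10 it was 0.61. The Schlafens were split, with 0.66 for Slfn1 and 0.45 for Slfn8 but −0.46 for Slfn5. Sp100 stood at 0.49 and Epsti1 at 0.48. The calls of Herc6, Trim30a, Oasl2, Ifi35 and Samd9l were each lost in some fits that left out 1 library, and 11 of the 16 positive calls and the negative one were made in all of them. A positive term means that the fold change with FOXP3 was less negative, or more positive, than the one without it. Mature Tregs and FOXP3lo progenitors also differed in Foxp3, and the steps in Il2ra were unequal, so the term does not isolate CD25.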

How the results depend on the processing

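In the fit of all 15 libraries, whose coefficient of variation was 0.420 against 0.184 for the 12, 17 members were lower in CD25+ progenitors than in conventional cells, 15 higher and 1 lower in FOXP3lo progenitors than in conventional cells, and 7 higher and 2 lower in mature Tregs than in conventional cells. In that fit 6 were lower in mature Tregs than in FOXP3lo progenitors, and the interaction had 2 positive and 0 negative calls. Fewer of all genes were called in that fit too. For Bst2+ cells, a variance per gate gave 0 higher and 7 lower with Bst2 at 0.74, and no filter gave 1 higher. Set against conventional cells alone, Oas2 turned to −1.63, Parp14 to 0.13 and Slfn5 to 0.061, a change of the group compared. Without Bst2+ replicate 40, Phf11d turned to −6.41, which depends on the prior count since both other libraries had 0 counts. Without CD25+ replicate 43, it was called at 3.75, with the 2 remaining CD25+ libraries at 0 counts. The median of all genes in the Bst2+ comparison shifted to −0.23 in limma-voom, with or without a variance per gate, and to −0.21 with no filter, and that of the interaction to 0.11 with no filter.

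Leaving out 1 library at a time gave 0 to 1 members called higher and 26 to 35 lower for CD25+ progenitors over conventional cells, 3 to 6 lower in mature Tregs than in conventional cells, and 12 to 22 lower and 0 to 1 higher in mature Tregs than in FOXP3lo progenitors. The interaction had 12 to 18 positive calls. For Bst2+ cells it gave 2 to 5 higher and 14 to 24 lower, and Bst2 at 0.31 to 1.32. Same-numbered libraries were weakly alike. The correlation of their deviations from the gate means was −0.0104 to 0.0538 over 18 pairs, against −0.0648 to 0.0331 over 36 other pairs, and 11 of 12 libraries correlated best with their own number. With a replicate block, 40 members were lower in CD25+ than in FOXP3lo progenitors, as without it. It ended no call and added 3, Rsad2 in mature Tregs over CD25+ progenitors (0.52), the interaction of Ifit1 (0.36) and Xaf1 in Bst2+ cells (−0.56).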
